A study of Homo sapiens with 15 samples.

Results

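A 5' splice site is the boundary at which an exon ends and an intron begins, and an exon with several such sites can end at any of them. The 5' splice site is first recognised by the U1 small nuclear ribonucleoprotein (snRNP), whose RNA pairs with the last exon bases and the first intron bases, and U6 RNA then takes over the pairing before the splice is made. Neighbouring sites compete for this recognition, and proteins of the SR and hnRNP families shift the balance between them. GEMIN5 is the subunit of the SMN complex that recognises small nuclear RNAs before the Sm protein ring is loaded on them, and it also binds ribosomes and acts in translation.

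The alternative 5' splice sites described here were the sites of event type ALTD in a table of splicing events that lay downstream of the shortest site of their exon, had at least 10 reads in all 15 libraries, and had a mean percent spliced in (PSI, the percentage of the event's reads that use the site) from 5 to 95 in the 8 control libraries. These conditions left 562 sites of 721551 rows in the whole table, out of 77447 downstream 5' splice sites and 9330 with enough reads. Of those 9330, 6453 were used below 5% and 2315 above 95% in control cells. The sites were chosen by their control PSI and their reads, so the control levels below are a description.

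The libraries came from HEK-293, a human embryonic kidney cell line. Cells were transfected with the plasmid pcDNA3Xpress-Gemin5, which drives GEMIN5 in whichever cells took it up, and were harvested 24 h later; control cells were untreated, so the groups share neither plasmid nor transfection, and a response to transfection and one to GEMIN5 cannot be told apart. Polyadenylated RNA was sequenced from whole cytoplasmic lysate (Input) and from the heavy part of a sucrose gradient, fractions 8 to 12 of 12 (Polysome). There were 3 Input GEMIN5, 4 Input control, 4 Polysome GEMIN5 and 4 Polysome control libraries, from independent biological samples. The study asked whether splice variants that follow from altered GEMIN5 levels are engaged in translation.

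Library depth ran from 11191417 to 18407933 counts over all genes. GEMIN5 averaged 1428 ± 112 CPM (counts scaled to a common library size, after TMM) in Input GEMIN5 and 13.9 ± 1.71 CPM in Input control libraries (SD, n = 3 and 4), and 924 ± 187 CPM in Polysome GEMIN5 against 5.796 ± 1.26 CPM in Polysome control libraries (SD, n = 4 each). HEK-293 has no agreed defining marker, and of 5 genes known from it only TUBB3 was at 0 in every library. PAX2 was also at 0 in Input GEMIN5 replicate 1, and LHX1 in Input GEMIN5 replicates 2 and 3. In CPM of the raw library total, without TMM, the 5 genes summed to 176 to 224 in Input GEMIN5 and 611 to 788 in Input control libraries. The sums were 330 to 462 in Polysome GEMIN5 and 340 to 592 in Polysome control libraries. VIM made up most of each sum. Transcripts of 10 liver genes, which HEK-293 should lack, are given as CPM of the raw library total, without TMM, and summed to 2.02 to 2.67 CPM in Input GEMIN5 and 0.724 to 99.5 CPM in Input control, and to 0.732 to 1.89 CPM in Polysome GEMIN5 and 87.3 to 155 CPM in Polysome control libraries. Among Input controls, albumin (ALB) was at 0 in replicates 1 and 2 and, on the same scale, at 39.68 and 30.96 CPM in replicates 3 and 4. Of the 10 liver genes 6 were at 0 in all Input GEMIN5 libraries, 5 in all Polysome GEMIN5 libraries and 0 in all libraries of either control group. The Input results were therefore also computed with either pair of Input controls alone, and of the 16 named sites called in Input only RBM42 and AURKB passed with both pairs, PRMT1 and SNHG17 passed only with the pair that carries ALB, and the others passed with neither; all 4 Polysome controls carried liver transcripts, so none could be set apart, and the part of this RNA in the splicing values was otherwise not tested.

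The 562 sites lay in 442 genes and 468 exons. In 383 exons a single site met the conditions, in 76 exons 2 sites did and in 9 exons 3 sites did; sites of one exon share their reads. The exons had up to 11 competing sites, and 207 of the 562 sites competed with the shortest site alone. A site lay a median of 45.5 nucleotides (nt) downstream of the shortest site of its exon, with quartiles of 17 and 110 nt and a range from 1 to 494 nt. The distance was a multiple of 3, which keeps the reading frame, for 210 sites (37.4%), against 34.6% of the 9330 sites with enough reads. The most frequent short distance was 4 nt with 37 sites, against 6 sites at 3 nt, 9 at 5 nt and 13 at 6 nt. Sites at 4 nt made up 6.58% of the 562 and 6.46% of the 9330. By the GENCODE annotation 173 sites added 5' UTR sequence, 181 coding sequence and 5 3' UTR sequence, 48 spanned an edge of the coding sequence, 72 belonged to transcripts without one, and 83 were used by no annotated transcript.

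**Figure D1:**
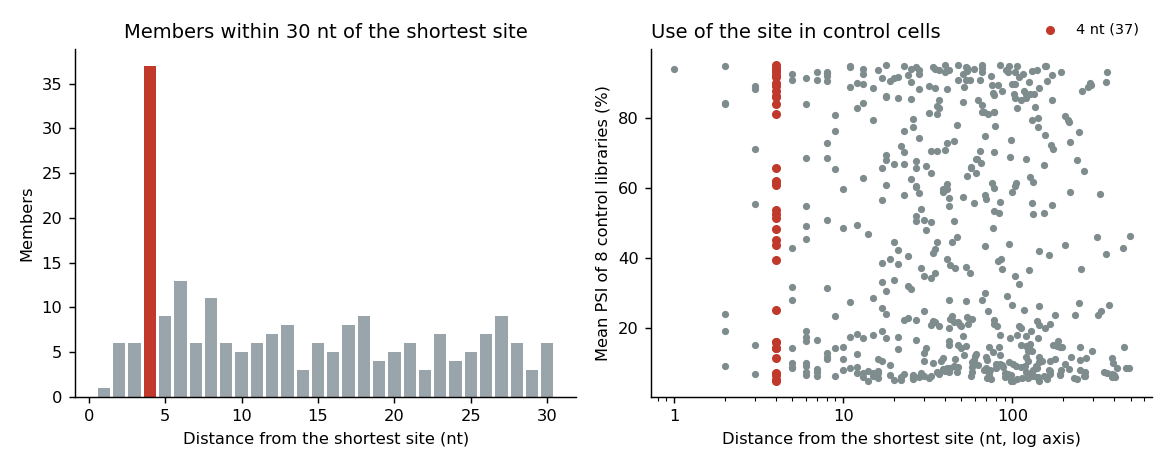
The left panel gives the number of sites (bars) at each distance from the shortest site up to 30 nt, with the 37 sites at 4 nt in red; the right panel gives the mean PSI of the 8 control libraries (%) against that distance on a log axis, each point being 1 of the 562 sites. Sites at 4 nt outnumber every other distance up to 30 nt and span control PSI from 5.14 to 94.9.

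Use of the sites in control cells was spread over the whole range that the conditions allow. A mean control PSI under 20 was found for 214 sites, from 20 to 80 for 210 sites and over 80 for 138 sites, with a median of 37.2. Just inside the lower bound were MRPL28 (5.02), ATP5L (5.07) and TMEM243 (5.08), and just outside it RPS3 (4.98) and OSTF1 (4.97). Just inside the upper bound were SNX3 (94.9), DNAAF3 (94.9) and JMJD4 (94.9), and just outside it other sites of OSTF1 (95.03), MRPL55 (95.05) and DHRS7B (95.07). At the read bound, sites of GNAS and CIRBP had 10 reads in their lowest library, and ATXN2L (9.99), PGS1 (9) and KHSRP (9) fell short. A site had a median of 73.9 reads per library, with means from 15.9 to 6851, and the median SD of PSI within a group was 4.05 points in Input GEMIN5, 3.91 in Input control, 4.07 in Polysome GEMIN5 and 4.12 in Polysome control libraries.

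The sequences of the sites on which the results turn are shown so that the competing signals can be compared; they were read from GENCODE release 29 transcripts on GRCh38, 5' to 3' on the strand of the gene. Capitals mark the first 2 bases of the intron that each site opens, and the most frequent bases at annotated sites are cagGTaagt. For RBM42 and GRHPR the stretch between the sites is shown, which begins with the intron start of the shortest site and is retained in the mRNA when the downstream site is used; the others show the last 3 exon and first 6 intron bases.
RBM42, between the sites, chr19:35631197-35631224, plus strand: GTgggtggccctccttttgtaggccctg
GRHPR, between the sites, chr9:37422806-37422833, plus strand: GTagggtcgcgctcgcccgggcggcaga
AURKB, shortest site, chr17:8207312-8207320, minus strand: aagGCaagt
AURKB, site at 142 nt, chr17:8207170-8207178, minus strand: gcaGTatgg
PRMT1, both sites, chr19:49679923-49679935, plus strand: gaaGTaaATatcc
N4BP2L2, shortest site and site at 6 nt, chr13:32527452-32527466, minus strand: tggGTacagGTataa
N4BP2L2, site at 56 nt, chr13:32527402-32527410, minus strand: gagGTttgt
HNRNPH3, site at 24 nt, chr10:68338640-68338648, plus strand: gaaGTatgt
UQCRQ, both sites, chr5:132866685-132866697, plus strand: cctGTgcGTgagt

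Where bases could be read, most sites opened an intron with GT. Of 501 shortest sites 463 began with GT and 35 with GC, the usual minor variant, and of 260 downstream sites 247 began with GT and 11 with GC. The AURKB exon is of the mixed kind, with GC at the shortest site, which otherwise matches the consensus at 7 of 9 bases, and GT at the site 142 nt downstream, which matches it at 4. The downstream PRMT1 site opens with ATATCC, the sequence known from introns of the minor spliceosome, which 0.113% of annotated sites carry; among all the competing sites read, only the shortest site of 2 TM2D1 sites also did. The related start GTATCC was found at the downstream sites of NCBP2, TATDN1, UBL5 and ZBTB8OS and at the shortest site of LSM8, against 0.514% of annotated sites. Both searches used only the bases at the intron start, read on the strand of the gene. Their percentages refer to annotated sites whose bases could be read from another transcript, not to all annotated sites. The UQCRQ pair shows the commonest spacing, in which a GT at 4 nt lies inside the intron bases of the other site; 11 of 18 pairs at 4 nt with bases at both sites had GT at both.

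The match of each site to annotated splice sites is set beside its control PSI as a description only, since that PSI chose the sites and those used below 5% or above 95% are cut off. The match was scored as log2 odds over 9 bases, with weights from annotated GT and GC sites whose bases could be read. It was available at both positions for 260 sites, a selection set by where another transcript runs through the intron start. The site was the stronger of the pair in 148 cases, with a median control PSI of 57.7, and the shortest site was stronger in 111 cases, with a median of 25.7. Across these 260 sites the difference in score and the control PSI had a Spearman correlation of 0.20 and a Pearson correlation of 0.16; for 76 sites whose exon has no further site the Spearman correlation was 0.32. The sites share libraries, and some share an exon. AURKB had a score of 2.90 at its main downstream site and 6.85 at the GC site.

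**Figure D2:**
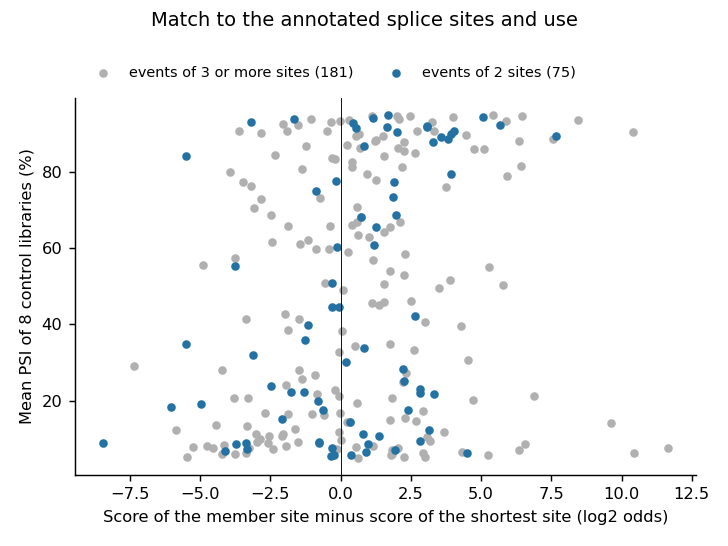
The mean PSI of the 8 control libraries (%) is plotted against the score of the site minus that of the shortest site of its exon (log2 odds), each point being 1 site with bases at both positions, blue where the exon has 2 sites and grey where it has more. Of 260 sites 256 are within the plotted range of 12; the points scatter widely, with medians of 57.7 where the site is stronger and 25.7 where the shortest site is.

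In the cytoplasm, 19 of the 562 sites (3.38%) changed use with GEMIN5, 10 rising and 9 falling, in 17 exons of 17 genes. The percentage called over the whole table was 11.0% (1191 of 10800 events; 4.31% higher, 6.62% lower and the rest with equal mean PSI in both groups), and over events of all types with the same control PSI range it was 9.62%. In that range 20 of 550 alternative 3' splice sites (3.64%), 255 of 2502 skipped exons (10.2%) and 120 of 688 retained introns (17.4%) were called; the event types were not tested against each other. Calls are those of limma on the log2 odds of reads with a Benjamini-Hochberg adjusted p under 0.05 over all 10800 events. The called sites differed by a median of 17.9 points, from 4.14 to 43.5, and had a median of 29 reads in their lowest library. Over all 562 sites the median size was 3.40 points, below 4.36 for events of all types in the same range; 361 sites moved by under 5 points, 35 by 15 or more, and 239 were higher and 323 lower. By size alone, 18 sites (3.2%) differed by at least 15 points with a gap of at least 5 between the ranges, against 3.29% of all events. The Input ranges did not overlap for 85 sites (15.1%), against 16.9% of all events.

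**Figure D3:**
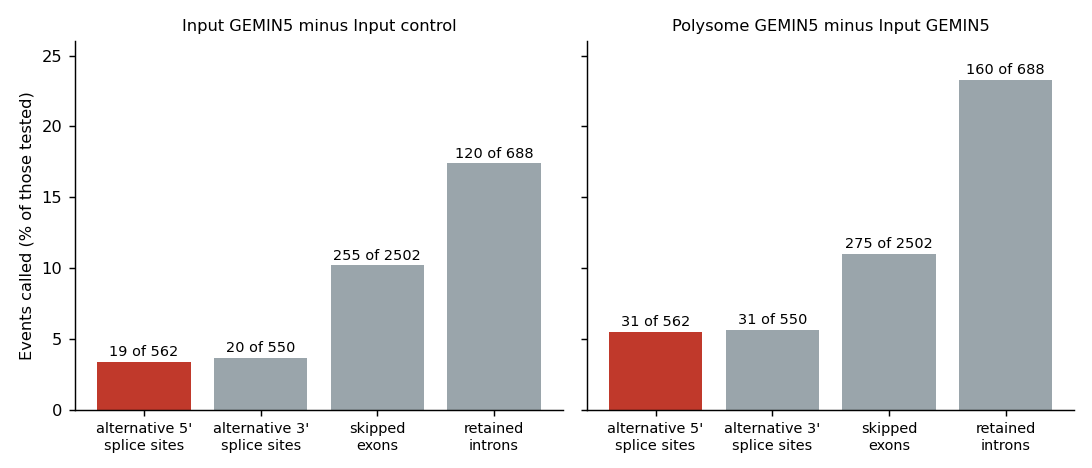
Bars give the percentage of events called by limma among those with a mean control PSI from 5 to 95, for alternative 5' splice sites (red) and the 3 other event types (grey), for Input GEMIN5 minus Input control (left) and Polysome GEMIN5 minus Input GEMIN5 (right); numbers above the bars are events called of events tested. Alternative 5' splice sites stand at 3.38% and 5.52%, beside alternative 3' splice sites at 3.64% and 5.64%, and retained introns are highest at 17.4% and 23.3%.

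The largest change was in RBM42, which encodes an RNA-binding protein found in the tri-snRNP of the spliceosome. Its downstream site, which adds 28 nt of coding sequence, had a PSI of 53.7, 45.1 and 59.0 in Input GEMIN5 libraries, against 97.3, 96.2, 96.6 and 94.2 in Input control libraries. In Polysome GEMIN5 libraries it was 90.6, 90.4, 82.5 and 80.5, and in Polysome control libraries 83.8, 94.0, 95.9 and 90.6. The 3 Input GEMIN5 libraries stood below the other 12, and the polysome groups overlapped. In Input the site fell by 43.5 points (log2 odds -4.38, SE 0.50, limma adjusted p = 0.000213), on 41 to 61 reads in Input GEMIN5 and 111 to 185 in Input control libraries. With the 2 Input controls that lack ALB the difference was -44.2 points (limma adjusted p = 0.00304), and with the 2 that carry it -42.8 points (0.00731). RBM42 gene counts did not pass the test (log2 -0.30, edgeR adjusted p = 0.133).

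AURKB, the mitotic kinase of the chromosomal passenger complex, lost use of its main site in favour of the GC site upstream. The site at 142 nt had a PSI of 61.1, 52.5 and 44.8 in Input GEMIN5 libraries, against 78.3, 85.4, 81.0 and 81.2 in Input control libraries. In Polysome GEMIN5 libraries it stood at 77.9, 79.4, 80.1 and 71.3, and in Polysome control libraries at 67.0, 83.4, 80.8 and 81.9. The Input groups did not overlap and the polysome groups did. In Input the site fell by 28.7 points (log2 odds -1.97, SE 0.36, limma adjusted p = 0.00338), and the GC site averaged 46.1% in Input GEMIN5 and 18.2% in Input control libraries. The fall was 29.1 points with the Input controls that lack ALB (limma adjusted p = 0.0306) and 28.3 points with those that carry it (0.031).

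GRHPR, the reductase that clears glyoxylate and hydroxypyruvate, moved in the same way. The downstream site adds 28 nt and is used by protein-coding transcripts, whereas the annotated transcripts that end at the shortest site have no coding sequence. Its PSI was 53.1, 49.0 and 51.7 in Input GEMIN5 libraries, against 80.9, 73.2, 72.4 and 73.6 in Input control libraries. It was 72.9, 64.7, 84.4 and 67.9 in Polysome GEMIN5, against 68.1, 78.2, 74.8 and 72.7 in Polysome control libraries. All 3 Input GEMIN5 values lay under all others, and the site fell by 23.8 points in Input (log2 odds -1.52, SE 0.35, limma adjusted p = 0.0128). GRHPR is abundant in liver; the difference was -25.8 points with the Input controls that lack ALB and -21.8 points with those that carry it, with limma adjusted p = 0.0537 and 0.0909 at 2 controls.

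PRMT1, the main enzyme of asymmetric arginine methylation, showed a rise. The site with the ATATCC start, 4 nt into the other in a 5' UTR, had a PSI of 25.9, 23.8 and 36.4 in Input GEMIN5, against 12.0, 10.6, 4.35 and 6.78 in Input control libraries. It had 18.2, 19.1, 18.5 and 9.09 in Polysome GEMIN5, against 26.7, 19.6, 22.0 and 13.3 in Polysome control libraries. Input GEMIN5 and Input control values were apart, while those of the polysome groups overlapped each other and reached into both Input ranges. In Input the site rose by 20.3 points (log2 odds 2.16, SE 0.41, limma adjusted p = 0.00484), on 11 to 27 reads in Input GEMIN5 libraries. With the Input controls that lack ALB the rise was 17.4 points and missed the threshold (limma adjusted p = 0.0572), and with those that carry it it was 23.1 points (0.00992).

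In N4BP2L2 and HNRNPH3 the shortest site was nearly unused, so that the downstream pair mirrored each other. The N4BP2L2 site at 6 nt had a PSI of 33.4, 38.1 and 50.2 in Input GEMIN5, against 8.84, 13.3, 3.33 and 15.4 in Input control libraries. It had 20, 15.0, 6.95 and 5.26 in Polysome GEMIN5, against 22.2, 2.63, 4.35 and 5.14 in Polysome control libraries. The Input groups did not overlap, and the site rose by 30.3 points (limma adjusted p = 0.0247) while the site at 56 nt fell by the same 30.3 points, on 18 to 24 reads in Input GEMIN5 libraries. The rise was 29.5 points with the Input controls that lack ALB and 31.2 points with those that carry it, and passed with neither (limma adjusted p = 0.111 and 0.0848). HNRNPH3 encodes a splicing regulator of the hnRNP H family. Its site at 24 nt had 61.5, 53.9 and 54.9 in Input GEMIN5, against 45.1, 38.3, 37.4 and 36.1 in Input control libraries, with 50.5, 43.4, 43.7 and 53.0 in Polysome GEMIN5 and 45.2, 43.4, 35.1 and 43.9 in Polysome control libraries. The Input groups were apart by 8.76 points and the site rose by 17.5 points (limma adjusted p = 0.0224), while the site at 69 nt fell by 15.9 points (0.0374). With the Input controls that lack ALB the rise at 24 nt was 15.1 points (limma adjusted p = 0.152), and with those that carry it 20.01 points (0.0599). The event had only 13 to 26 reads in Input GEMIN5 libraries, against 155 to 261 in Input control libraries.

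Of the other sites that fell, the one at 362 nt in NDUFC1, a respiratory complex I subunit, had a PSI of 73.0, 77.5 and 76.5 in Input GEMIN5, against 92.5, 97.1, 94.2 and 96.8 in Input control libraries. The site at 64 nt in PHKG2, a catalytic subunit of phosphorylase kinase, had 64.8, 75.6 and 74.2 in Input GEMIN5, against 86.9, 93.5, 90.6 and 86.6 in Input control libraries. The site at 170 nt in SNHG17, a noncoding host of small nucleolar RNAs, had 56.3, 49.2 and 58.5 in Input GEMIN5, against 75.8, 63.7, 71.2 and 78.1 in Input control libraries. None of these groups overlapped, with differences of -19.5, -17.9 and -17.5 points (limma adjusted p = 0.0384, 0.042 and 0.023). In PHKG2 the reads went mainly to a site at 42 nt, which averaged 18.1% in Input GEMIN5 and 5.22% in Input control libraries; the shortest PHKG2 site is annotated only in transcripts marked for nonsense-mediated decay. PHKG2 is a gene of liver and testis, and its difference was -18.7 points with the Input controls that lack ALB and -17.1 points with those that carry it, passing with neither (limma adjusted p = 0.117 and 0.168).

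Of the other sites that rose, DAP3, a protein of the small mitochondrial ribosomal subunit, had 36.4, 38.5 and 33.8 at its site at 69 nt in Input GEMIN5, against 23.6, 18.6, 22.1 and 19.6 in Input control libraries. ALG13, part of the enzyme that adds the second sugar in N-glycosylation, had 46.1, 49.5 and 51.9 at 125 nt in Input GEMIN5, against 34.2, 31.9, 36.2 and 37.9 in Input control libraries. MPI, mannose phosphate isomerase, had 13.8, 15.6 and 14.3 at 112 nt in Input GEMIN5, against 3.28, 7.14, 3.90 and 6.35 in Input control libraries. In each gene the groups were apart, by 6.65 points in MPI to 10.2 points in DAP3, with rises of 15.3, 14.1 and 9.40 points (limma adjusted p = 0.0288, 0.0405 and 0.027).

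The sites in PYGL and WASHC1 rose with limits on what they show. PYGL, the liver form of glycogen phosphorylase, had 86.4, 70.2 and 100 at its site at 4 nt in Input GEMIN5, against 52.6, 68.2, 64.5 and 62.1 in Input control libraries. The groups were apart by only 1.95 points, and the rise was 23.7 points (limma adjusted p = 0.0451), 25.1 with the Input controls that lack ALB and 22.3 with those that carry it, where it passed with neither (limma adjusted p = 0.149 and 0.167). WASHC1, a subunit of the complex that nucleates actin on endosomes, had 54.6, 44.8 and 48.4 at its site at 18 nt in Input GEMIN5, against 21.5, 34.0, 34.6 and 24.3 in Input control libraries, a rise of 20.6 points (0.039) that passed with neither pair of Input controls (limma adjusted p = 0.118 without ALB and 0.145 with it). WASHC1 has near-identical copies elsewhere in the genome, so its reads may come from several loci. The 3 remaining called sites were in TTC32 (a rise of 8.20 points), CD151 (a rise of 9.73 points, the only one with overlapping ranges) and SURF2, which fell by 4.14 points. The TTC32 site averaged 91.8 in Input control and 100 in Input GEMIN5 libraries, the ceiling of PSI, where the log2 odds depend on the number of reads.

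**Figure D4:**
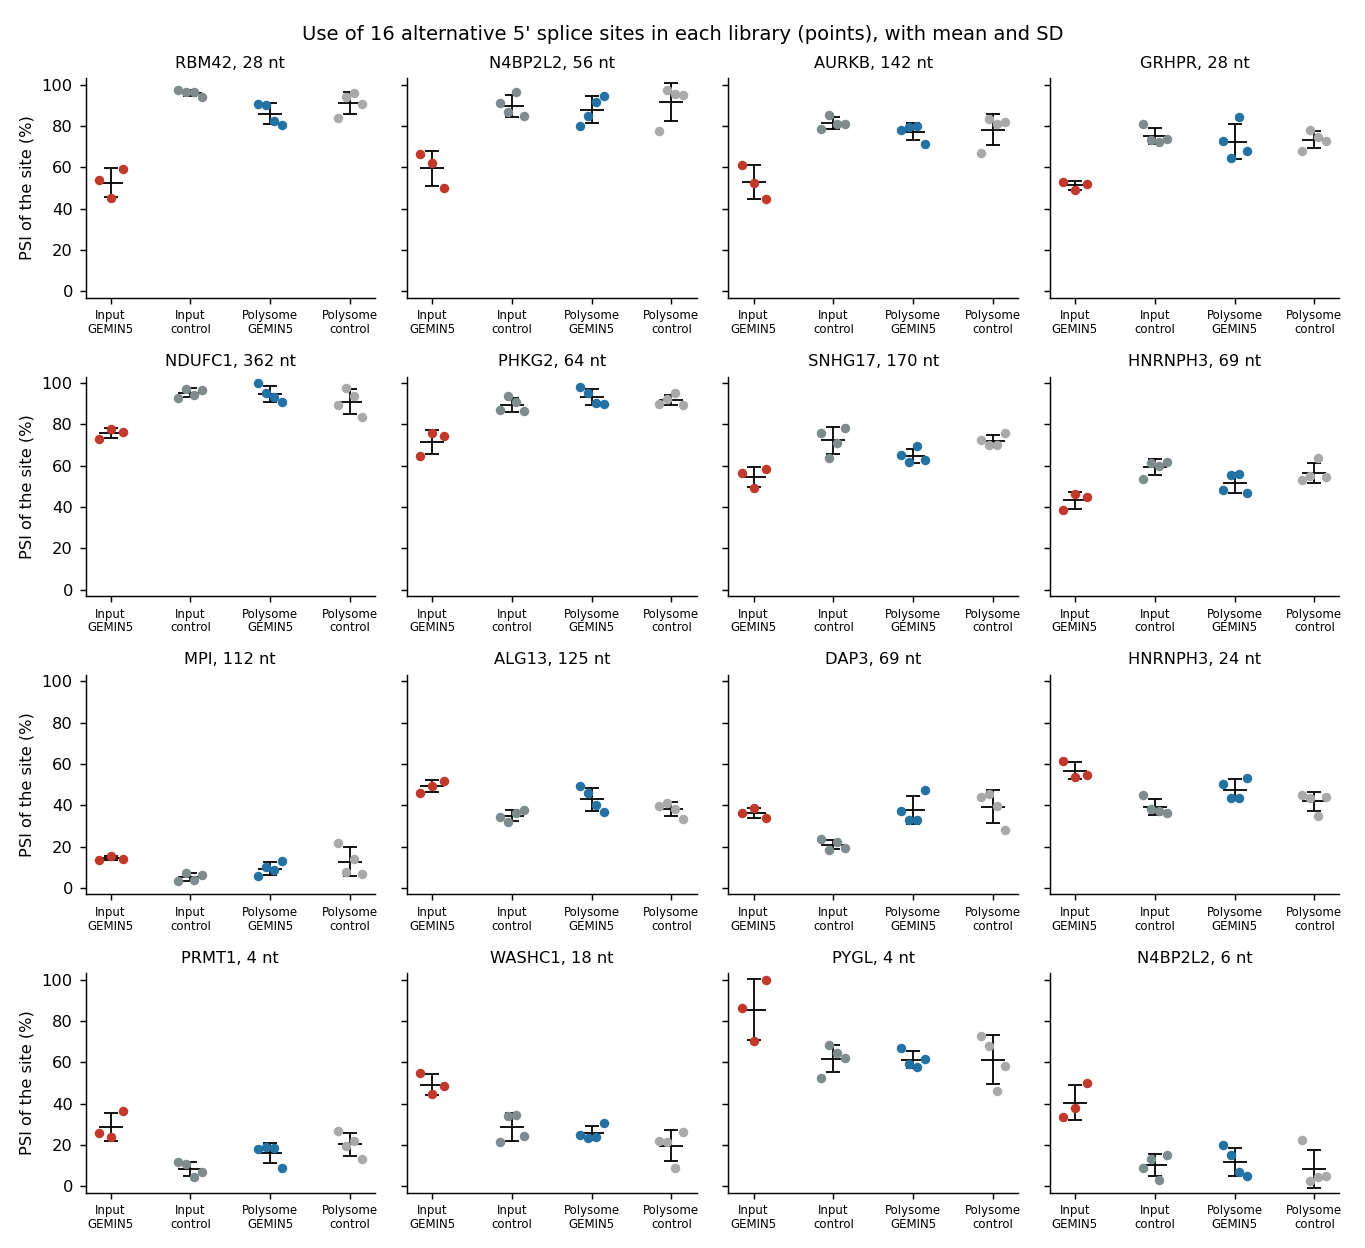
Each panel gives the PSI (%) of 1 of 16 alternative 5' splice sites that changed in Input, with a point per library, a line at the group mean and bars of 1 SD, for Input GEMIN5 (red, 3 libraries), Input control (dark grey, 4), Polysome GEMIN5 (blue, 4) and Polysome control (light grey, 4); titles give the gene and the distance from the shortest site. The red points stand apart from the dark grey ones in every panel, by 35.1 points in RBM42 and 1.95 in PYGL, and the ranges of blue and light grey points overlap in most.

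In polysomes, none of the 562 sites was called between GEMIN5 and control cells, and 1 of 10800 events (0.00926%) was. The smallest limma adjusted p of a site was 0.515. At an unadjusted p under 0.05 there were 36 sites (6.41%), against 5.63% of all events, and limma on PSI itself called 0 sites too. The median size was 2.31 points, as in events of all types in the same PSI range (2.30). No site differed by 15 points with a gap of 5 between ranges, as 0.0556% of all events did. The 19 sites called in Input differed in Polysome by a median of 3.54 and at most 7.24 points. The sites with the smallest p, none of which passed, were BBOX1-AS1, ELP6 and COX6C among the higher and HAUS4, FXYD5 and HPS1 among the lower. ELP6, a subunit of the Elongator complex, had 78.1, 88.4, 76.3 and 74.9 at its site at 329 nt in Polysome GEMIN5, against 54.7, 57.8, 38.8 and 72.1 in Polysome control libraries. HAUS4, a subunit of the augmin complex of the spindle, had 2.76, 9.10, 5.06 and 5.06 in Polysome GEMIN5, against 16.1, 13.5, 14.04 and 13.3 in Polysome control libraries. Both pairs of groups were apart, on as few as 12 reads in ELP6 and 21 in HAUS4. In simulated data with these read numbers and 200 changed events, limma recovered 75.8% of events changed by 30 points in Polysome. It recovered 35.8% of those changed by 20 and 2.99% of those changed by 10. Most changes of 20 points or less were thus missed in the simulation and could be missed here.

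**Figure D5:**
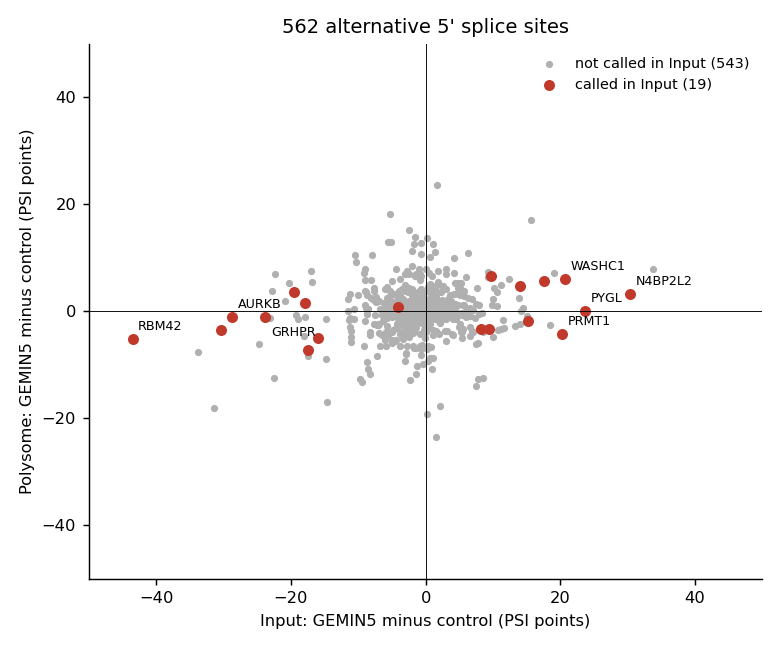
Each point is 1 of the 562 sites, with the difference in mean PSI between GEMIN5 and control in Input on the x axis and in Polysome on the y axis (percentage points); red points are the 19 sites called in Input. The red points spread from -43.5 to 30.3 points along x and stay within 7.24 points of 0 along y; the 2 axes share no library.

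The difference between the Polysome and the Input effect was called for 2 sites, against 236 of all events (2.19%). In RBM42 the GEMIN5 effect was 38.4 points higher in Polysome than in Input (log2 odds 3.57, SE 0.69, limma adjusted p = 0.0178). In PRMT1 it was 24.4 points lower (log2 odds -2.57, SE 0.56, limma adjusted p = 0.0306). Both missed the threshold with 2 Input controls alone, at 0.0569 and 0.0791 for RBM42 and 0.128 and 0.0523 for PRMT1. For AURKB the difference of effects was 27.6 points (0.0616) and for GRHPR 22.8 points (0.111), so neither was shown to differ between the fractions.

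Between fractions of control cells no site was called either (smallest limma adjusted p 0.0932; 49 sites at an unadjusted p under 0.05, 8.72% against 8.17% of all events), and 12 of all events were (0.111%). Closest was the site at 167 nt in PRMT5, the main symmetric arginine methyltransferase, with 21.4, 12.5, 13.2 and 20.8 in Polysome control, against 1.45, 4.55, 6.93 and 5.00 in Input control libraries. The site at 69 nt in DAP3 had 44.2, 45.5, 39.7 and 28.1 in Polysome control, against 23.6, 18.6, 22.1 and 19.6 in Input control libraries. Neither pair of groups overlapped, and neither passed the test. CHCHD2 and ATRAID were lower and PRPF38A higher among the sites with the smallest p.

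Between fractions of GEMIN5 cells 31 sites were called (5.52%), 18 higher and 13 lower in Polysome, in 29 exons of 29 genes, against 12.4% of all events (6.98% higher, 5.29% lower and the rest with equal mean PSI). This comparison shares the Input GEMIN5 libraries with the cytoplasmic one, and RBM42 (33.4 points), AURKB (24.4), PHKG2 (21.8), GRHPR (21.2) and NDUFC1 (19.1) stood higher in Polysome than in Input, and PYGL (-24.1) and WASHC1 (-23.4) lower. The largest difference was in RPSA, a protein of the small ribosomal subunit, whose site at 318 nt in the 5' UTR had 69.6, 60.3, 71.9 and 77.3 in Polysome GEMIN5, against 40.9, 36.5 and 27.5 in Input GEMIN5 libraries. In control cells the same site had 67.3, 45.8, 55.8 and 49.0 in Polysome, against 48.4, 39.7, 32.5 and 29.2 in Input libraries. The GEMIN5 fractions were apart by 19.4 points (a difference of 34.8 points, limma adjusted p = 0.00301), the control fractions overlapped (17.0 points, 0.412), and the difference of effects did not pass (0.293). RPSA has many processed pseudogenes, so its read assignment is uncertain.

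Other sites differed between the fractions of GEMIN5 cells with little or no call in Input. PRPF38A, a factor of spliceosome activation, had 97.7, 93.6, 96.8 and 90.04 at its site at 126 nt in Polysome GEMIN5, against 69.1, 79.1 and 71.1 in Input GEMIN5 libraries (21.4 points, limma adjusted p = 0.00389). In control cells it had 98.3, 97.0, 95.4 and 92.1 in Polysome, against 82.1, 85.4, 83.1 and 86.7 in Input libraries (11.4 points, 0.143). Both pairs of groups were apart, and the shortest PRPF38A site is annotated only in a transcript without a coding sequence. ATRAID, a protein induced by retinoic acid, had 18.1, 16.4, 10.6 and 17.2 at its 5' UTR site at 140 nt in Polysome GEMIN5, against 30.7, 34.1 and 37.8 in Input GEMIN5 libraries (-18.6 points, limma adjusted p = 0.00575). In control cells it had 19.1, 13.4, 19.8 and 11.2 in Polysome, against 34.0, 25.8, 26.4 and 28.2 in Input libraries (-12.7 points, 0.191), again without overlap. PPIE, a cyclophilin of the spliceosome, was higher by 29.5 points, and TMEM5, which extends the sugar chain of dystroglycan, HUS1 of the checkpoint clamp, IMP4 of the ribosomal RNA processing machinery and HPS1 of the organelle-forming complex were lower by 28.2, 23.3, 19.0 and 16.3 points in Polysome GEMIN5.

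The Input differences are given by class as a description, with no test between classes. Among the 105 sites that add coding sequence out of frame, the median difference was -3.11 points and 6 were called (5.71%), 1 of them higher. Among the 76 that add coding sequence in frame, it was -1.53 points with 3 called (3.95%), 2 of them higher. Among the 173 in 5' UTRs it was 0.19 points with 5 called (2.89%), 4 of them higher. All 562 sites had a median of -0.75 points with 19 called (3.38%), 10 of them higher. All 10800 events had a median of -0.76 points with 11.0% called. Of the 37 sites at 4 nt 3 were called (8.11%), all higher (PRMT1, PYGL and CD151), with a median difference of -0.33 points for the class. Each class thus rests on few called sites, and its share was below that of all events.

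Read depth over the sites moved with the groups in Input. Distances to the 3' end were measured along an annotated transcript that uses the site, and models incomplete at that end were not set aside. The 5' UTR sites of PRMT1 and RPSA, for example, were placed 426 and 381 nt from it. The distances are therefore those of annotated models and may be shorter than in the full mRNA. For sites under 500 nt from the 3' end of their transcript the median log2 ratio of reads, Input GEMIN5 over Input control, was 0.34 (134 sites). It was -0.30 at 500 to 1000 nt (175 sites), -0.81 at 1000 to 2000 nt (109 sites) and -0.50 beyond 2000 nt (61 sites); in Polysome all 4 ratios were within 0.02 of 0. The called sites numbered 3, 4, 5 and 5 in these classes (2.24%, 2.29%, 4.59% and 8.20%), and the median size of the difference was 2.86, 3.48, 4.74 and 5.08 points. The part of this depth pattern in the splicing values was not tested.

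Several of the sites with most reads changed little. NDUFS5, a complex I subunit with competing sites 4 nt apart, averaged 51.3 ± 1.42 in Input GEMIN5 and 54.5 ± 1.59 in Input control libraries (SD, n = 3 and 4), and 52.7 in both polysome groups. UQCRQ, a complex III subunit with the same spacing, had 6.88, 7.22 and 6.92 in Input GEMIN5, against 5.03, 5.27, 5.34 and 5.73 in Input control libraries, a small difference without overlap. UQCR10, also of complex III, averaged 11.1 in Input GEMIN5 and 11.2 in Input control libraries, and RPL38, a protein of the large ribosomal subunit, 95.4 and 94.6. Sites in other genes of the splicing machinery and its regulators (GEMIN7, HNRNPH1, LUC7L, LUC7L3, LSM8, RBM4, RBM8A, SNRPE, SRSF5 and TIA1) were not called between GEMIN5 and control cells in either fraction. In LUC7L, a U1-associated protein, the site at 13 nt had 79.2, 71.6 and 96.0 in Input GEMIN5, against 83.6, 88.3, 87.3 and 84.0 in Input control libraries, with overlapping ranges.

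Gene counts of many factors that recognise 5' splice sites changed in Input, and none was called in Polysome. Of 68 listed genes 66 could be tested, and 51 were called in Input by edgeR's quasi-likelihood test, 19 higher and 32 lower, against 51.5% of all genes (27.1% higher and 24.4% lower); with scaling by library size alone the split was 9 higher and 51 lower, since the median of all genes then moved to -1.29. The scaling factors of the Input GEMIN5 libraries were 0.354 to 0.488 and those of Input controls 0.971 to 1.03. Within the U1 particle, SNRNP70 fell (log2 -1.71, SE 0.25, edgeR adjusted p = 1.32e-05) and SNRPC rose (1.20, SE 0.15, 1.73e-06), while SNRPA stood at 0.17 (0.451). Of the Sm ring, SNRPG, SNRPD2 and SNRPE were higher by 2.51, 2.10 and 2.04, and SNRPD3, at under 1 CPM, did not pass. Among proteins that help U1 bind, LUC7L3 fell by 1.17, and among regulators of site choice HNRNPL fell by 3.02 and HNRNPA1 by 1.68, while RBFOX2 rose by 2.53. In Polysome 0 of the 66 were called (0.484% of all genes). Host genes of the 562 sites were tested for 373 genes, of which 260 were higher and 31 lower in Input and none was called in Polysome; the sites had to have 10 reads in every Input GEMIN5 library, which favours hosts with more RNA there.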

How the data were processed

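RNA of 15 libraries was analysed from 2 deposited tables. Per the submitters' processing notes, reads were aligned with STAR 2.7.10a to GRCh38 and counted with featureCounts; counting options and the splicing software's version were not given in the sources used here. Raw read counts make up the deposited gene table. The deposited event table is in the layout of vast-tools, per the file headers, and gives PSI in percent and a quality text with 2 corrected read numbers (other) for each event and library; recomputing PSI from the reads gave a value less than 0.5 points away in all 1217116 cases. Libraries were grouped by their labels.

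Read numbers after the quality mark were converted to log2((inclusion reads + 0.5)/(exclusion reads + 0.5)) and fitted with limma 3.58.1 (trend and robust, R 4.3.3) on all 10800 events with a length over 0, at least 10 reads in all libraries and some variation (highest PSI at least 5, lowest at most 95), with 4 groups in 1 fit and no pairing, and Benjamini-Hochberg adjustment at 0.05. Corrected reads are not whole, so no count model was used for them. Gene counts were tested with edgeR 4.0.16 (quasi-likelihood, TMM, 12197 genes of 21519). Both fits were tested on simulated data: in Input limma recovered 74.2% of events changed by 30 points and 17.9% of those changed by 20. The number of reads limits the precision of each PSI; errors over libraries include it.

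Sites were located in GENCODE release 29 (GRCh38), and bases read from its transcripts. In each comparison the text names up to 8 called sites per direction with the largest difference and no overlap, or the 3 with the smallest p where fewer than 3 were called, sites in genes of the splicing lists, sites at the bounds, and the sites with most reads per distance class. TTC32 falls under this rule for the difference between fractions; CD151 and SURF2 were named after their values were seen. The sites and lists were chosen with earlier results of these data known. Alternatives changed the added number, the read minimum, the filter, the scale, the variance trend, a replicate block, the groups fitted, the size rule and the libraries; DESeq2 1.42.0 and library size scaling were tried for genes. The labels do not say whether the numbers 1 to 4 pair the libraries, and the main fits used no pairing. The deviations of same-numbered libraries correlated from -0.066 to 0.053. Between Input control and Polysome control, same-numbered libraries correlated at 0.024, 0.035, 0.032 and 0.022. Libraries of unlike number in these groups correlated from -0.04 to 0.03. Values this small do not settle whether these groups are paired.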

Additional observations from a re-analysis of the deposited data

Results flagged for a closer look

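Of 72 groups of 4 libraries examined for the called sites, 9 had 1 library far from the other 3 by Dixon's criterion; chance gives about 1 in 20. The PSI of that library was 67.03 for AURKB in Polysome control replicate 1, 80.88 for GRHPR in Input control replicate 1, and 63.72 for the HNRNPH3 site at 69 nt in Polysome control replicate 3. For N4BP2L2 it was 22.22 at the site at 6 nt and 77.78 at the site at 56 nt, both in Polysome control replicate 1 and from the same reads. It was 92.36 for PPIE in Polysome GEMIN5 replicate 3, 9.09 for PRMT1 in Polysome GEMIN5 replicate 4, 27.85 for TMEM5 in Polysome control replicate 3 and 30.85 for the WASHC1 site at 18 nt in Polysome GEMIN5 replicate 4.

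By limma's test of the difference with all libraries, the effect of GEMIN5 was called different between the fractions for 2 sites. It was 38.39 points higher in Polysome than in Input for RBM42, and for PRMT1 the difference was -24.43 points. Only RBM42 kept its call with each library left out in turn, and neither site kept it under all other settings. Both missed the threshold with either pair of Input controls alone.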

How the results depend on the processing

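Of 792 values recomputed for the named results under other settings, 609 kept their direction and their side of the threshold, 165 no longer passed, 18 newly passed and 0 changed direction. In Input, 4 of 16 named called sites (RBM42, AURKB, GRHPR and PRMT1) passed with each library left out in turn, and RBM42 and AURKB passed under all other settings too. Left-out libraries and 2-control fits hold fewer samples by construction; for other changes the cause was not tested.

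Called sites in Input numbered 47 with no filter on variable events, 8 to 14 with 1 library left out (12 or fewer whichever Input control was left out, or without Input GEMIN5 replicate 2 or 3; 8 without Input control replicate 3) and 5 with either pair of Input controls alone, a split chosen after seeing the data. By size there were 8 at 20 reads, 18 to 27 with 1 library left out and 29 with either pair. In Polysome, 0 to 4 sites passed by size with 1 library left out, 4 without Polysome control replicate 2. For the difference between fractions, 4 sites were called with 1 added to the reads, 20 with no filter, 5 on the PSI scale, 4 with a variance trend over reads, 1 with the replicate block, 1 to 3 with 1 library left out (1 without Input control replicate 3 or 4, Input GEMIN5 replicate 3, Polysome control replicate 1 or 2, or Polysome GEMIN5 replicate 3) and 0 with either pair; by size there were 20 at 20 reads and 104 at 10 points. In control cells, Polysome against Input, 1 site was called with 1 added, 1 at 20 reads, 4 with no filter and 1 with the trend over reads; by size there were 7 at 10 points, 0 to 6 with 1 library left out (6 without Input control replicate 1), 2 with the Input controls that lack ALB and 10 with those that carry it. In GEMIN5 cells, Polysome against Input, 66 were called with no filter, 16 in a fit of these groups alone and 17 to 29 with 1 library left out (17 without Input GEMIN5 replicate 2, 20 without Polysome GEMIN5 replicate 3); by size there were 22 to 36, 36 without Input GEMIN5 replicate 2. For the factor genes in Polysome 0 to 4 were called, 4 without Polysome control replicate 1. With the replicate block 14 sites were called in Input, and the labels do not say whether the numbers pair the libraries.

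The median lowest read number of the sites called in Input was 29, and in simulated data 0 of 67 events changed by 10 points were recovered there. The simulation changed 200 events, whereas 1191 of 10800 events were called in Input, so its adjusted p was harder to pass. The smallest difference of a called site in the data was 4.14 points. The part of depth in what was called was not tested.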

Other observations

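A site at 41 nt in HNRNPH1, a splicing regulator of the hnRNP H family, was split among libraries of the same group. Its PSI was 36.7, 65.5 and 47.9 in Input GEMIN5, against 98.0, 89.5, 38.5 and 100 in Input control libraries, and 34.0, 28.6, 58.8 and 61.7 in Polysome GEMIN5, against 25.6, 34.0, 99.0 and 97.0 in Polysome control libraries. High and low values were found in libraries with and without liver transcripts. Other sites of the same gene at 12 and 42 nt varied far less, from 73.5 to 86.5 and from 13.4 to 24.2 over all 15 libraries.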
